A study of Mus musculus with 21 samples.

Results

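The genes described here are 8 ligands of the epidermal growth factor (EGF) family, Areg, Ereg, Hbegf, Tgfa, Egf, Btc, Epgn and Nrg1, and 2 receptors, Egfr and Erbb3. They were taken by gene symbol from the deposited count table, in which all 10 were found among 24062 genes. Of the 10, 9 passed the filter on low counts and were tested with 15936 genes in all. Epgn, which encodes epigen, held 0 to 9 counts per library, did not pass and was not tested. RNA sequencing was done on colon of C57BL/6 mice in 21 libraries, 3 in each of 7 groups. The groups were wild-type male normal colon, wild-type male tumour, App NL-G-F knock-in male normal colon, App NL-G-F knock-in male tumour, wild-type female normal colon, wild-type female tumour and App NL-G-F knock-in female normal colon. Tumours are labelled AOM/DSS, a protocol in which the carcinogen azoxymethane is followed by dextran sulfate sodium, a colitis-inducing agent. Normal samples are labelled as untreated, whereas the design text says that adjacent normal tissue and colon without tumours were also used, and which library is which is not given in the sources used here. App NL-G-F is a humanised App allele that carries mutations of familial Alzheimer's disease. No tumour of knock-in females was analysed here, and neither age nor the number of animals is given in the sources used here. The labels do not say that the 3 libraries of a group come from separate animals, so p-values measure only the spread between these libraries, which may be technical.

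EGF-family ligands are made as membrane proteins that proteases such as ADAM17 and ADAM10 cut to release the active factor. Amphiregulin (Areg), epiregulin (Ereg), HB-EGF (Hbegf), TGF-alpha (Tgfa), EGF, betacellulin (Btc) and epigen bind EGFR, while neuregulin 1 (Nrg1) binds ERBB3 and ERBB4. Ligand binding pairs receptors of the ErbB family and starts the RAS to ERK and PI3K to AKT cascades, and ERBB3, whose own kinase is nearly inactive, signals through a partner such as ERBB2. In the gut these signals are known for driving the growth of crypt stem and progenitor cells and the repair of injured epithelium.

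Among the 10 genes, 4 ligands lie side by side on mouse chromosome 5 (GENCODE M21, GRCm38). In order these are Epgn (chr5:91027464-91035215, plus strand), Ereg (chr5:91074622-91093646, plus strand), Areg (chr5:91139599-91148432, plus strand) and Btc (chr5:91357261-91402994, minus strand). The gaps between neighbours are 39.4 kb, 46.0 kb and 208.8 kb, and the whole stretch spans 375.5 kb. Tgfa lies at chr6:86195223-86275719 on the plus strand, Egf at chr3:129677565-129755316 on the minus strand and Nrg1 at chr8:31814551-32884029 on the minus strand. Egfr lies at chr11:16752203-16918158 on the plus strand and Erbb3 at chr10:128567523-128589652 on the minus strand. Of this stretch, Areg and Btc were tested and had an entry in the promoter table, so the 250 bases before the start of Areg (chr5:91139349-91139598, plus strand) and of Btc (chr5:91402995-91403244, minus strand) are shown, from RefSeq on GRCm38.p6. Of the 10 genes, 6 had an entry in the promoter table. Capitals mark matches to 5 motifs searched on both strands: the cyclic AMP response element TGACGTCA, the AP-1 site TGANTCA, the GC box GGGCGG, the TATA box TATAAA and the TCF/LEF site CTTTGAT.
Areg: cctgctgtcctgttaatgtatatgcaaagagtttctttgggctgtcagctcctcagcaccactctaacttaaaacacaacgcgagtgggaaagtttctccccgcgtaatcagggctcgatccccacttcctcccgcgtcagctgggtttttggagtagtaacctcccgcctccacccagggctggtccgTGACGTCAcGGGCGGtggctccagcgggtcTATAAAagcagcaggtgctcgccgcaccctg
Btc: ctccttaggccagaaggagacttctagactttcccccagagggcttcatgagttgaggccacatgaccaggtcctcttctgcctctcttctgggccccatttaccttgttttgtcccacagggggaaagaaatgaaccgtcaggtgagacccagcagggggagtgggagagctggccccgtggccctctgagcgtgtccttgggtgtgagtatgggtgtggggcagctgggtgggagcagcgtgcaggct
The Areg window held a cyclic AMP response element 61 to 54 bases before the start, a GC box 52 to 47 bases before it and a TATA box 31 to 26 bases before it. Of 32851 promoter windows of the same length, 1.55% held the cyclic AMP response element, 32.7% the GC box, 12.4% the TATA box, 6.75% the AP-1 site and 3.21% the TCF/LEF site. None of the 5 motifs was found in the Btc window. A match of letters is a description of the window and not evidence that a factor binds there.

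Library totals ran from 3414123 counts in wild-type male tumour replicate 2 to 26174008 counts in wild-type female normal replicate 1. Counts of Rn45s, the precursor of ribosomal RNA, took 2.84 to 3.18% of a library in wild-type female normal colon and 7.96 to 10% in the tumours. They took 4.9 to 8.26% against 9.3 to 13.1% in wild-type males, neither pair overlapping, and 6.59 to 14.1% against 6.95 to 8.23% in knock-in males. The part of this in the tumour differences was not tested. All 7 epithelial markers (Epcam, Cdh1, Krt8, Krt18, Krt19, Cldn7 and Vil1) were present in every group, with summed levels from 5743 CPM (counts scaled to the TMM-adjusted library size) in a wild-type female tumour to 10525 CPM in a wild-type female normal library. Smooth muscle markers fell in every comparison of tumour with normal colon, 8 of 8 each time. Their summed level was 2836 to 9533 CPM in wild-type male normal colon against 188 to 742 CPM in the tumours. It was 4518 to 8280 CPM in knock-in male normal colon against 866 to 1002 CPM in the tumours, and 1975 to 4566 CPM in wild-type female normal colon against 176 to 213 CPM in the tumours. Differentiated colonocyte markers also fell, 4 of 5 for wild-type males, 3 of 5 for knock-in males and 5 of 5 for wild-type females. In bulk tissue, fewer cells of a type and less RNA per cell cannot be told apart, and the part of such shifts in the differences given here was not tested.

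The levels of the 10 genes spanned a wide range. Compared per kb of exon, Erbb3 was the most abundant in all 7 groups, with a mean in wild-type male normal colon of 72.6 ± 18.9 CPM per kb (SD, n = 3). Areg was next in all 4 normal groups, at 15.1 ± 2.51 CPM per kb for wild-type males, 15.3 ± 3.55 CPM per kb for knock-in males, 19.7 ± 2.67 CPM per kb for wild-type females and 18.2 ± 2.68 CPM per kb in knock-in females. The ranges of Erbb3 and Areg did not overlap in any normal group. Egfr and Tgfa followed in 3rd and 4th place in either order, and their ranges overlapped in every normal group except wild-type females, where Egfr was above Tgfa without overlap. Hbegf, Ereg and Btc formed a lower set between 2.24 and 5.45 CPM per kb in the normal groups, and Hbegf and Ereg overlapped in the 3 groups where they were neighbours. Egf was low per kb, at 0.490 ± 0.0553 CPM per kb in wild-type male normal colon, and Epgn lower still, at 0.0625 ± 0.0552 CPM per kb. In wild-type tumours the order changed: Ereg was next to Erbb3, at 23.3 ± 25.6 CPM per kb in males and 20.4 ± 5.17 CPM per kb in females, and its range overlapped that of Erbb3 in both sexes. In males this place rests on tumour replicate 2, where Ereg was at 52.8 CPM per kb. In replicates 1 and 3 it was at 7.29 and 9.86 CPM per kb, below both Tgfa (17.2 and 17.9) and Areg (11.6 and 10.8). Areg kept its place next to Erbb3 in knock-in male tumours, at 26.02 ± 5.19 CPM per kb.

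**Figure D1:**
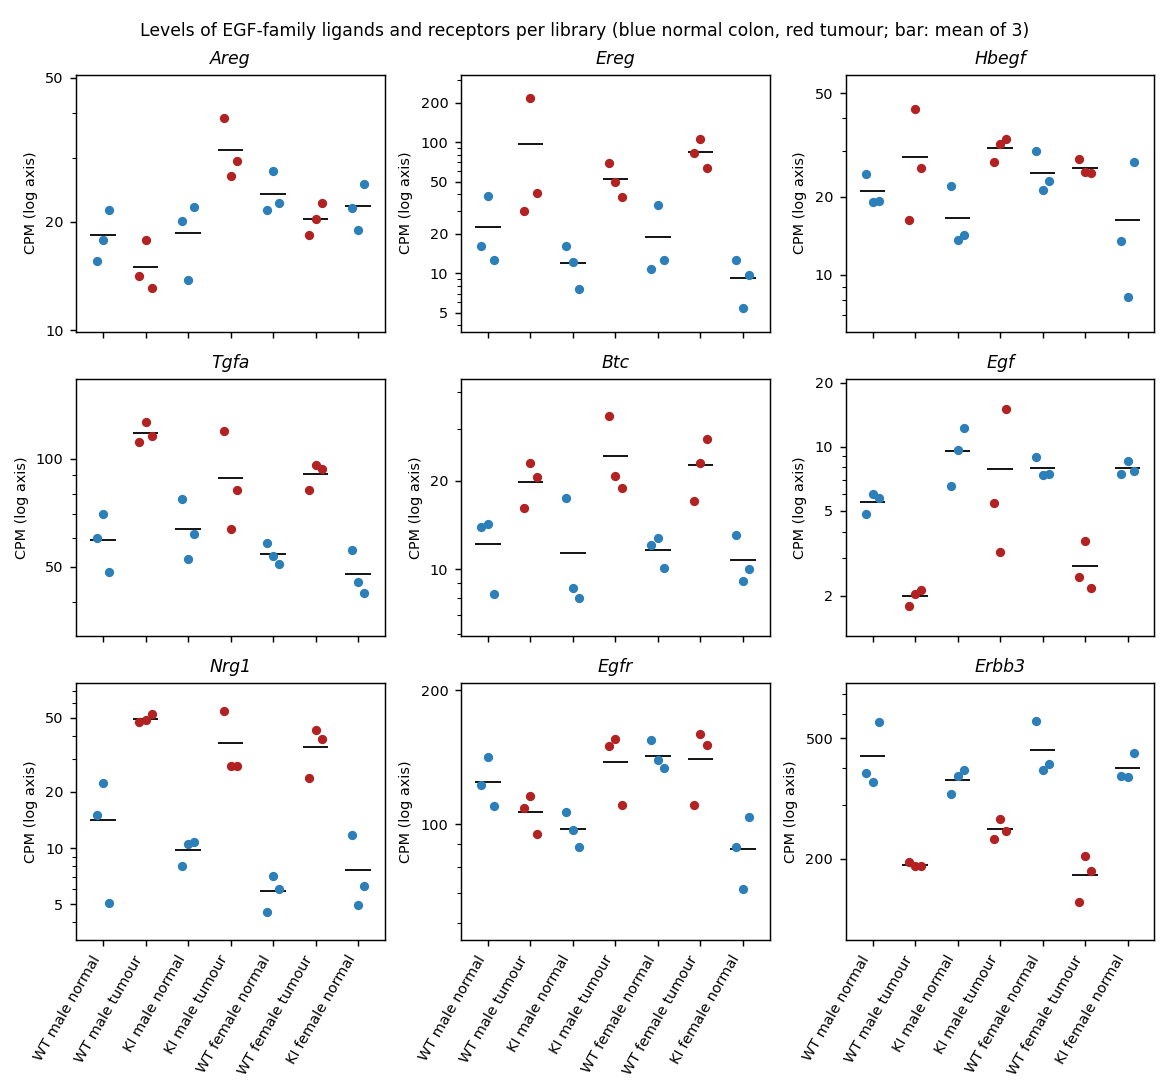
Level of each tested gene in each library, in CPM on a log axis. Blue points are normal colon, red points are tumours, and the bar is the mean of 3 libraries. Erbb3 is lower in every tumour group than in normal colon of the same genotype and sex, while the 3 knock-in male tumours stand above the 3 wild-type male tumours in Areg.

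Tumour and normal colon were compared first, in wild-type males, knock-in males and wild-type females. Tumours held more epiregulin and neuregulin 1 transcript and less Erbb3 in all 3 comparisons, each past an adjusted p of 0.05 in edgeR's quasi-likelihood test. In wild-type males 5 of the 9 tested genes passed, 3 higher and 2 lower, where 35.7% of all tested genes passed, 16.5% higher and 19.3% lower. Knock-in males had 6 of 9 past it, 5 higher and 1 lower, against 20.4% of all tested genes, 10.4% higher and 9.97% lower. In wild-type females 6 of 9 passed, 4 higher and 2 lower, against 49.1% of all tested genes, 25% higher and 24% lower. Tumour and normal libraries did not overlap for 5, 7 and 6 of the 9 genes in the same order, against 52.4%, 33.6% and 58.4% of all tested genes. The median log2 fold change of the 9 genes was 0.40, 0.77 and 0.05 in the 3 comparisons in that order, beside 0.01 over all tested genes in each. The count for knock-in males was the least stable. It was 2 without knock-in male normal replicate 2, 2 without knock-in male normal replicate 3, 1 without knock-in male tumour replicate 1, 2 when the fit held just the compared groups, and 2 with offsets for GC content and length.

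Ereg encodes epiregulin, a ligand of EGFR and ERBB4 that is induced by inflammation. In wild-type males it read 16.0, 38.9 and 12.6 CPM in normal colon and 30.1, 218 and 40.7 CPM in tumours, given here and hereafter in the order of replicates 1, 2 and 3. The groups overlapped, because normal replicate 2 was above tumour replicate 1, and tumour replicate 2, the library with the fewest counts, stood far above the rest. The log2 fold change was 2.06 ± 0.69 (SE, edgeR adjusted p = 0.0293), and without that tumour library it was 0.65 (edgeR adjusted p = 0.369). The call also ended without normal replicate 1 (edgeR adjusted p = 0.101), without normal replicate 3 (0.120) and when the fit held just the compared groups (0.127). Knock-in males had 16.2, 12.1 and 7.61 CPM in normal colon and 69.6, 49.8 and 37.9 CPM in tumours. These groups did not overlap. The log2 fold change was 2.13 ± 0.70 (edgeR adjusted p = 0.0418), with adjusted p from 0.0519 to 0.141 when each of the 6 libraries was left out. In wild-type females it read 10.7, 33.2 and 12.5 CPM in normal colon and 82.2, 106 and 63.9 CPM in tumours. Every tumour was above every normal library, with a log2 fold change of 2.19 ± 0.70 (edgeR adjusted p = 0.0166). That call ended without wild-type female normal replicate 1 (edgeR adjusted p = 0.0752) or normal replicate 3 (0.0633). Neutrophil markers, some of which mark inflamed tissue, were also higher in tumours when summed. Their summed level over 5 markers, none at 0, was 1.89 to 24.3 CPM in normal colon of wild-type males and 32.2 to 61.4 CPM in the tumours. It was 8.86 to 19.9 CPM against 32.9 to 51.3 CPM in knock-in males and 3.001 to 7.39 CPM against 51.9 to 159 CPM in wild-type females. Of the 5 markers, 1, 0 and 5 passed in the 3 comparisons, all higher, where 35.7%, 20.4% and 49.1% of all tested genes passed. The part of these markers in the Ereg difference was not tested.

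Nrg1 encodes neuregulin 1, a ligand of ERBB3 and ERBB4 that stromal cells of the gut are known to make. In wild-type males it read 15.0, 22.4 and 5.07 CPM in normal colon and 47.4, 48.9 and 52.3 CPM in tumours. In knock-in males it read 8.04, 10.6 and 10.7 CPM in normal colon and 54.2, 27.4 and 27.7 CPM in tumours. In wild-type females it read 4.52, 7.11 and 6.04 CPM in normal colon and 23.8, 42.9 and 38.3 CPM in tumours. Tumours lay above normal colon without overlap in all 3 comparisons. The log2 fold change was 1.79 (SE 0.41, edgeR adjusted p = 0.00323) for wild-type males, 1.90 (SE 0.42, adjusted p = 0.00685) for knock-in males and 2.61 (SE 0.45, adjusted p = 0.000146) for wild-type females. All 3 calls remained under the 9 other settings and under each omission of 1 library. Of 7 fibroblast markers, none rose and 2 fell for wild-type males, and 1 rose and 1 fell for knock-in males. For wild-type females 4 rose and 2 fell. The part of these markers in the Nrg1 difference was not tested. Their summed level was 2432 to 2707 CPM in normal colon of wild-type males and 2208 to 2636 CPM in the tumours, 2248 to 3700 and 2787 to 4135 CPM in knock-in males, and 1161 to 1409 and 1769 to 2845 CPM in wild-type females, with no marker at 0.

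Tgfa encodes TGF-alpha, a ligand made by epithelial cells. In wild-type males it read 60.1, 70.1 and 48.5 CPM in normal colon and 112, 126 and 116 CPM in tumours. In wild-type females it read 58.1, 53.5 and 50.8 CPM in normal colon and 81.9, 96.2 and 93.8 CPM in tumours. Every wild-type tumour was above every normal library of its sex, and the groups had little spread. The log2 fold change was 0.98 ± 0.19 (SE, edgeR adjusted p = 0.00075) in males and 0.74 ± 0.19 (edgeR adjusted p = 0.00355) in females. Knock-in males had 77.1, 52.5 and 61.8 CPM in normal colon and 120, 63.9 and 81.6 CPM in tumours, so that tumour replicate 2 lay within the normal range. The log2 fold change was 0.47 ± 0.19 and did not pass (edgeR adjusted p = 0.0818), and it passed without tumour replicate 2 (edgeR adjusted p = 0.0359).

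Btc encodes betacellulin, which binds EGFR and ERBB4. In knock-in males it read 17.5, 8.61 and 7.95 CPM in normal colon and 33.1, 20.8 and 18.9 CPM in tumours. In wild-type females it read 12.0, 12.8 and 10.1 CPM in normal colon and 17.1, 23.0 and 27.8 CPM in tumours. In wild-type males it read 13.9, 14.3 and 8.26 CPM in normal colon and 16.1, 23.0 and 20.5 CPM in tumours. No tumour overlapped the normal range in any of the 3 comparisons, although the margin in knock-in males was narrow. Btc rose by a log2 fold change of 1.11 ± 0.30 in knock-in males (edgeR adjusted p = 0.0156) and 0.96 ± 0.30 in wild-type females (edgeR adjusted p = 0.0127). In wild-type males the value was 0.69 ± 0.30 (edgeR adjusted p = 0.0789), which passed with offsets for GC content and length (0.0299). Those offsets ended the call in knock-in males (edgeR adjusted p = 0.0832), as did a fit of the compared groups alone (0.107), these offsets with the replicate block (0.143), and omission of normal replicate 2 (0.0682), normal replicate 3 (0.0801) or tumour replicate 1 (0.0885). The call in wild-type females ended with libraries numbered 152 and above as a covariate (edgeR adjusted p = 0.0643) and without tumour replicate 3 (0.0648).

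Areg encodes amphiregulin, a ligand linked to tissue repair and to type 2 immunity. In wild-type males it read 15.5, 17.8 and 21.6 CPM in normal colon and 14.1, 17.8 and 13.1 CPM in tumours. In wild-type females it read 21.6, 27.6 and 22.5 CPM in normal colon and 18.3, 20.4 and 22.5 CPM in tumours. These groups overlapped, with log2 fold changes of -0.31 ± 0.20 (edgeR adjusted p = 0.240) in males and -0.22 ± 0.19 (edgeR adjusted p = 0.361) in females. Knock-in males had 20.1, 13.7 and 21.96 CPM in normal colon and 38.7, 26.7 and 29.4 CPM in tumours. Every knock-in tumour was above every knock-in normal library, and Areg rose by 0.77 ± 0.19 on the log2 scale (edgeR adjusted p = 0.0111). The call ended when the fit held just the compared groups (edgeR adjusted p = 0.0873), without normal replicate 2 (0.0596) and without tumour replicate 1 (0.0684). Areg thus passed in 1 of 3 comparisons, while its chromosome 5 neighbour Ereg passed in 3 of 3 and Btc in 2 of 3. These counts rest on the threshold, and differences between the genes were not tested.

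Egf encodes EGF itself and had few counts in every group. In wild-type males it read 4.82, 5.99 and 5.77 CPM in normal colon and 1.80, 2.04 and 2.12 CPM in tumours. In wild-type females it read 8.92, 7.39 and 7.43 CPM in normal colon and 2.44, 3.63 and 2.17 CPM in tumours. All wild-type tumours lay below all normal libraries of their sex. Egf fell by 1.48 ± 0.42 on the log2 scale in males (edgeR adjusted p = 0.0114) and by 1.53 ± 0.41 in females (edgeR adjusted p = 0.00453), and the male call ended without tumour replicate 1 (0.0523). In knock-in males it read 6.54, 9.69 and 12.3 CPM in normal colon and 5.44, 3.19 and 15.0 CPM in tumours. Here tumour replicate 3 was above every normal library and the other two tumours were below every one. The log2 fold change was -0.29 ± 0.37 (edgeR adjusted p = 0.605), and without tumour replicate 3 it was -1.14 (edgeR adjusted p = 0.0175).

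Hbegf, which encodes a heparin-binding ligand, did not pass in any of the 3 comparisons. Knock-in males had 21.9, 13.5 and 14.3 CPM in normal colon and 27.1, 31.8 and 33.2 CPM in tumours. These groups did not overlap, and the log2 fold change of 0.89 ± 0.35 missed the threshold (edgeR adjusted p = 0.0762) but passed in DESeq2 (adjusted p = 0.0460). Group means of Hbegf in wild-type mice were 20.9 ± 3.10 CPM in male normal colon, 28.5 ± 13.8 CPM in male tumours, 24.7 ± 4.68 CPM in female normal colon and 25.8 ± 1.80 CPM in female tumours (SD, n = 3). Epgn, untested, had its highest count, 9, in a wild-type female tumour.

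The 2 receptors behaved differently from each other. Erbb3, the partner receptor for neuregulins, read 384, 359 and 567 CPM in normal colon of wild-type males and 195, 188 and 189 CPM in tumours. It read 568, 393 and 412 CPM in wild-type female normal colon and 144, 203 and 182 CPM in tumours. In knock-in males it read 327, 374 and 392 CPM in normal colon and 232, 270 and 247 CPM in tumours. No tumour reached the lowest normal library of its group. Erbb3 fell by 1.20 ± 0.17 on the log2 scale for wild-type males (edgeR adjusted p = 5.43e-05), by 0.54 ± 0.17 for knock-in males (edgeR adjusted p = 0.0296) and by 1.38 ± 0.17 for wild-type females (edgeR adjusted p = 4.34e-06). The 2 wild-type calls remained under the 9 other settings and each omission of 1 library, and the knock-in call ended in 3 of 9 settings and 3 of 6 omissions (adjusted p up to 0.103). Of 7 epithelial markers, 5 fell for wild-type males, 0 for knock-in males and 6 for wild-type females, with 1 higher in each. Their median log2 fold change was -0.45, -0.13 and -0.59 in the same order. The summed level was 7714 to 10212 CPM in wild-type male normal colon against 6771 to 7178 CPM in the tumours. It was 7567 to 8192 against 6910 to 8330 CPM in knock-in males and 9546 to 10525 against 5743 to 6897 CPM in wild-type females, with no marker at 0, and the part of this in the Erbb3 difference was not tested.

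Egfr, the receptor of 7 of the 8 ligands, read 122, 141 and 110 CPM in normal colon of wild-type males and 109, 116 and 95.2 CPM in tumours. It read 155, 139 and 134 CPM in wild-type female normal colon and 111, 159 and 150 CPM in tumours. Both pairs of groups overlapped, with log2 fold changes of -0.23 ± 0.16 (edgeR adjusted p = 0.287) and -0.03 ± 0.16 (edgeR adjusted p = 0.910). Knock-in males had 107, 97.0 and 88.8 CPM in normal colon and 149, 155 and 110 CPM in tumours. Each tumour was above each normal library, and Egfr rose by 0.50 ± 0.16 (edgeR adjusted p = 0.0342). That call remained in 1 of 6 omissions of a library, the one without tumour replicate 3 (adjusted p = 0.0175), and ended in the other five (up to 0.157). It also ended in 4 of 9 other settings, among them the offsets for GC content and length, which gave 0.34 (adjusted p = 0.125), and these with the replicate block, 0.28 (0.161).

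**Figure D2:**
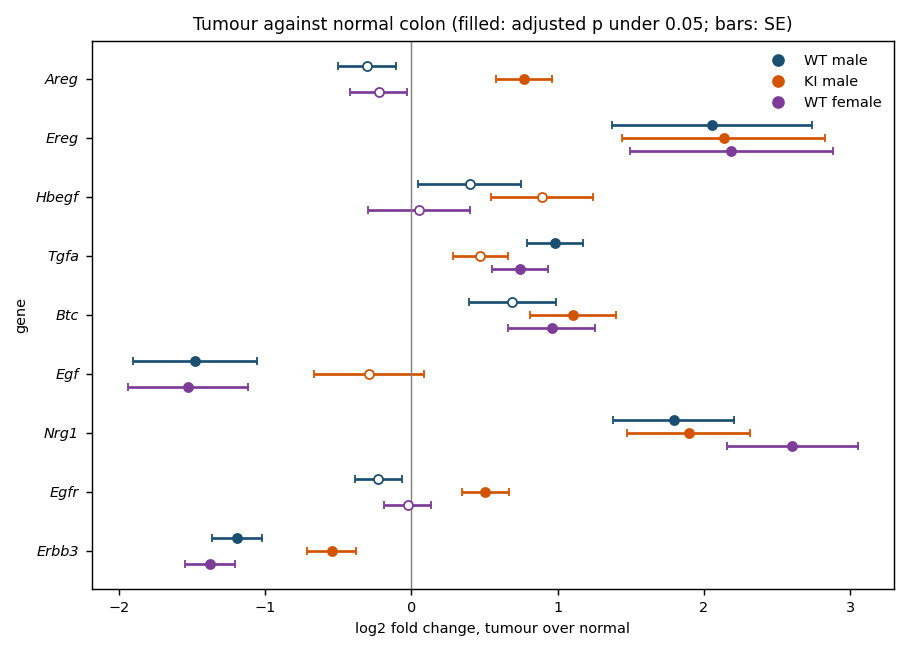
Log2 fold change of tumour over normal colon for the 9 tested genes, with the standard error as bars. Dark blue is wild-type males, orange is knock-in males and purple is wild-type females, and filled points passed an adjusted p of 0.05. Ereg and Nrg1 lie to the right and Erbb3 to the left in all 3 comparisons, while the filled point of Areg, at 0.77, is that of knock-in males.

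The make-up of the ligand transcripts was also described in tumour and normal colon. Summed per kb over the 8 ligands, the level was 35.1 to 44.8 CPM per kb in normal colon of wild-type males and 47.9 to 106 CPM per kb in the tumours. It was 29.0 to 42.2 against 58.2 to 86.1 CPM per kb in knock-in males, and 37.6 to 48.0 against 60.4 to 72.3 CPM per kb in wild-type females. None of these pairs of ranges overlapped. Areg made up the largest mean share in all 4 normal groups, from 39.6% ± 9.60 in wild-type males to 52.1% ± 3.31 in knock-in females (SD, n = 3). In wild-type tumours its share was 19.3% ± 5.30 in males and 25.7% ± 2.98 in females, below the share in every normal library of the same sex. In knock-in male tumours it was 38.2% ± 1.34, and this range overlapped that of knock-in male normal colon, 42.6% ± 6.09. The share of Ereg was 13.5% ± 6.60 in normal colon and 27.7% ± 19.0 in tumours of wild-type males, 8.15% ± 2.70 and 18.4% ± 2.99 in knock-in males, and 10.5% ± 5.49 and 31.0% ± 5.97 in wild-type females. In the wild-type male tumours the Ereg share was 15.2%, 49.6% and 18.4%, so replicate 2 alone lay outside the normal range of 8.71 to 21.03%. Nrg1 was a minor part throughout, with a group mean of at most 7.80% ± 2.92, reached in wild-type male tumours. These shares are descriptions of relative levels and were not tested.

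**Figure D3:**
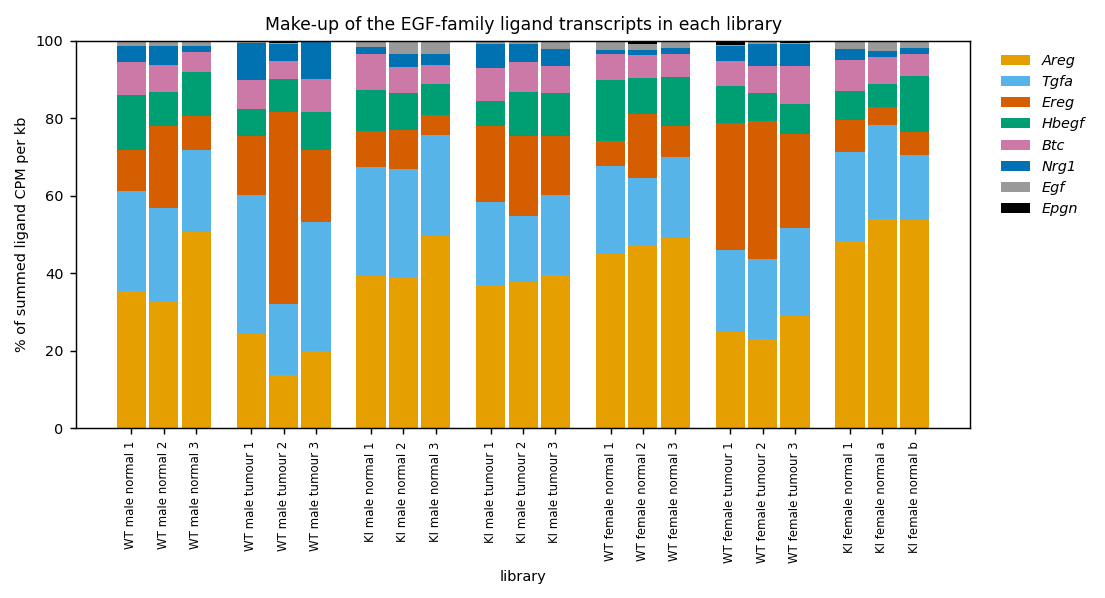
Share of each of the 8 ligands in the summed ligand level of each library, in percent of CPM per kb of exon. Each bar is 1 library. The Areg share is 13.7 to 24.2% in the 3 wild-type male tumours and 37.0 to 39.6% in the 3 knock-in male tumours.

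Knock-in and wild-type tumours were then compared in males, the contrast that the design text raises for the mutant App background. Areg and Egf were higher in knock-in tumours, and none of the 9 genes was lower past the threshold. Thus 2 of 9 passed, where 14.5% of all tested genes passed in either direction and 9.3% were higher. The genotypes did not overlap for 3 of the 9, against 36.4% of all tested genes. The median log2 fold change was 0.30 over the 9 genes and 0.05 over all tested genes. This comparison shares its tumour libraries with the comparisons to normal colon above, so the 3 are not independent. With the values already given, the 3 knock-in tumours lay above the 3 wild-type tumours in Areg, at 31.6 ± 6.30 against 15.0 ± 2.45 CPM (SD, n = 3). The log2 difference was 1.10 ± 0.20 (SE, edgeR adjusted p = 0.00433). It remained past the threshold under the 9 other settings (0.99 to 1.10) and under each of 6 omissions of a library (0.88 to 1.22, adjusted p up to 0.0306). Egf was at 7.87 ± 6.25 CPM in knock-in tumours and 1.99 ± 0.165 CPM in wild-type tumours, with no overlap, and wild-type tumours held 7 to 25 counts each. The log2 difference was 1.97 ± 0.43 (edgeR adjusted p = 0.00936). Without knock-in tumour replicate 3 it was 1.13 (adjusted p = 0.0249), and when the fit held just the compared groups the call ended (adjusted p = 0.0763).

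Markers of some cell types were also compared between these tumours, where 14.5% of all tested genes passed. The summed smooth muscle level was 866 to 1002 CPM in knock-in tumours and 188 to 742 CPM in wild-type tumours, with 0 of 8 markers past the threshold in edgeR and 7 at an unadjusted p under 0.05. Colonocyte markers summed to 389.4 to 1200 CPM against 346.5 to 458.4 CPM, with 0 of 5 past the threshold and 4 at an unadjusted p under 0.05. Fibroblast markers summed to 2787 to 4135 against 2208 to 2636 CPM, with 2 of 7 higher. Macrophage markers summed to 171 to 298 against 317 to 457 CPM, with 2 of 5 lower. Markers of enteric glia and Schwann cells summed to 5.86 to 10.8 against 3.78 to 4.68 CPM, with 2 of 6 higher. No marker of these lists was at 0 in either group. Their part in the Areg and Egf differences was not tested. Neither receptor passed in the main test. Erbb3 did not overlap, with a log2 difference of 0.39 ± 0.17 (edgeR adjusted p = 0.118), and Egfr differed by 0.38 ± 0.16 with overlap (edgeR adjusted p = 0.114). Erbb3 passed in 1 of 9 other settings, and Egfr in 1 of 6 omissions of a library (edgeR adjusted p = 0.0448). Tgfa differed by -0.41 ± 0.19 (edgeR adjusted p = 0.137), and without knock-in tumour replicate 1 by -0.73 (adjusted p = 0.0202). Ereg (-0.84 ± 0.66), Nrg1 (-0.44 ± 0.40), Btc (0.30 ± 0.29) and Hbegf (0.15 ± 0.35) had wide errors relative to their log2 differences, and all but Nrg1 changed sign under at least 1 alternative, so no direction is read from them.

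Whether the change from normal colon to tumour itself differed by genotype was tested as an interaction in males. None of the 9 genes passed, 4 had an unadjusted p under 0.05, and 1.51% of all tested genes passed. DESeq2 called 2 of the 9. For Areg the log2 change was larger by 1.07 ± 0.28 in knock-in males, which missed the threshold (edgeR adjusted p = 0.0536). Over the 9 other settings the adjusted p of this difference ran from 0.0100 with DESeq2 to 0.190 with the replicate block and offsets for GC content and length. Egfr had a difference of 0.73 ± 0.23 (edgeR adjusted p = 0.0765, DESeq2 adjusted p = 0.0390), Erbb3 of 0.65 ± 0.24 (edgeR adjusted p = 0.112) and Egf of 1.19 ± 0.56 (edgeR adjusted p = 0.197).

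In normal colon the genotypes differed past the threshold in 1 of these genes and in 1 sex. In males none of 9 passed in edgeR, 1 had an unadjusted p under 0.05, and 0.0126% of all tested genes passed. None of the 9 passed in DESeq2 either. The male groups did not overlap for 2 of the 9, Egf (log2 difference 0.79 ± 0.38) and Egfr (-0.35 ± 0.16), both with an edgeR adjusted p of 1, where 7.08% of all tested genes did not overlap. In females Egfr was the only one of the 9 to pass, lower in knock-in colon, where 16% of all tested genes passed and 7% were lower. It was also the only one without overlap between the female groups, against 37.8% of all tested genes. It read 88.9, 71.3 and 104 CPM in knock-in females, in the order of replicate 1 and the unnumbered replicates a and b, and 155, 139 and 134 CPM in wild-type females. The groups did not overlap, and Egfr fell by 0.70 ± 0.16 on the log2 scale (edgeR adjusted p = 0.00782). Without replicate a the difference was -0.57 and the call ended (adjusted p = 0.0582). Hbegf read 13.5, 8.21 and 27.2 CPM in knock-in females and 30.0, 21.2 and 22.9 CPM in wild-type females. It did not pass with a log2 difference of -0.60 ± 0.35 (edgeR adjusted p = 0.255), and without replicate b it was -1.17 (adjusted p = 0.0278). Smooth muscle markers summed to 6815 to 9563 CPM in knock-in female normal colon and 1975 to 4566 CPM in wild-type female normal colon, with 3 of 8 higher. Fibroblast markers summed to 2247 to 2827 against 1161 to 1409 CPM, with 3 of 7 higher, and endothelial markers to 149.98 to 165 against 63.1 to 91.1 CPM, with 3 of 4 higher. None of these markers was at 0 in either group, and their part in the Egfr difference was not tested. The genotype effect on Egfr was not shown to differ by sex (difference -0.34 ± 0.23, edgeR adjusted p = 0.462), and none of the 9 passed that test, in which 2.54% of all tested genes did and none of the 9 had an unadjusted p under 0.05. DESeq2 called none of the 9 there.

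**Figure D4:**
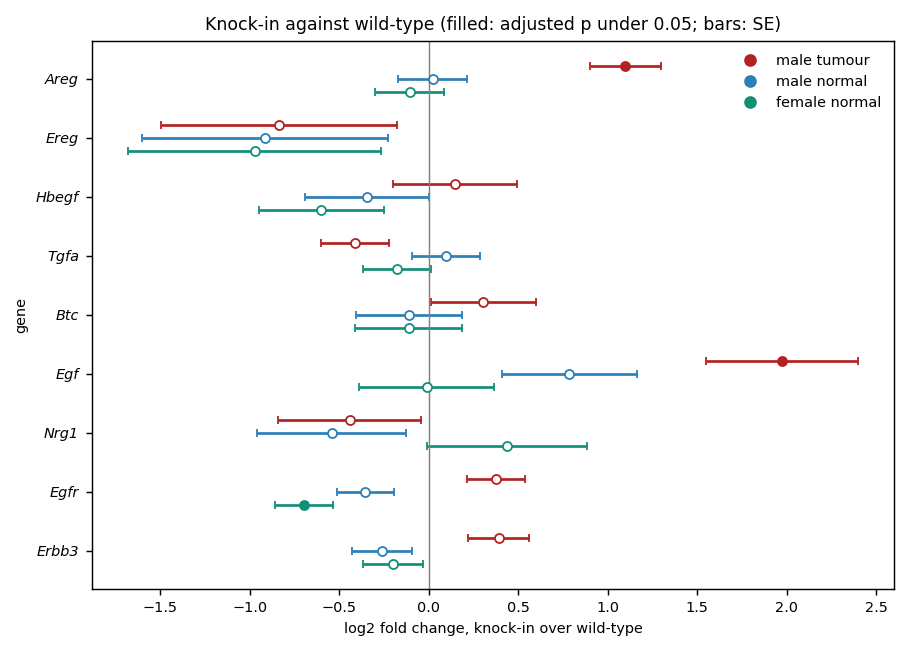
Log2 fold change of knock-in over wild-type for the 9 tested genes, with the standard error as bars. Red is male tumour, blue is male normal colon and green is female normal colon, and filled points passed an adjusted p of 0.05. The filled points are Areg (1.10) and Egf (1.97) in male tumours and Egfr (-0.70) in female normal colon.

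No gene of the 9 differed between females and males past the threshold in the edgeR test. This held in wild-type tumours, where 0.86% of all tested genes passed and 2 of the 9 had an unadjusted p under 0.05. It held in wild-type normal colon, where 15.9% passed, and in knock-in normal colon, where 0.584% passed, with 1 of the 9 at an unadjusted p under 0.05 in each. DESeq2 called 1 of the 9, Nrg1 in wild-type normal colon, and none elsewhere. Nrg1 was nearest in wild-type normal colon, at 5.89 ± 1.30 CPM in females and 14.2 ± 8.69 CPM in males (SD, n = 3), with overlap. The log2 difference of females from males was -1.31 ± 0.44 (edgeR adjusted p = 0.0524), and it passed in DESeq2 (adjusted p = 0.0141) and without wild-type male normal replicate 3 (-1.70, adjusted p = 0.00470). None of the 9 passed the test of whether the tumour effect differed by sex in wild-type mice, in edgeR or in DESeq2, with none at an unadjusted p under 0.05 in edgeR, while 1.12% of all tested genes passed.

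Other genes of the pathway were followed from lists by role. Among 4 tested relatives of the ErbB family, Erbb2, the usual partner of ERBB3, fell in all 3 tumour comparisons. Its log2 fold change was -0.85 ± 0.19 (edgeR adjusted p = 0.00211) for wild-type males, -0.62 ± 0.19 (0.0267) for knock-in males and -1.29 ± 0.19 (2.36e-05) for wild-type females. Its mean level was 321 ± 72.5 CPM in normal colon of wild-type males and 178 ± 10.5 CPM in the tumours. Erbb4 was called higher in knock-in males and wild-type females, though its mean level stayed under 1 CPM in every group. Of 9 genes for ligand shedding and trafficking, 4 rose and 2 fell for wild-type males, 1 rose for knock-in males, and 5 rose and 1 fell for wild-type females. Over all tested genes 35.7%, 20.4% and 49.1% passed in these comparisons, and the share of this list was below that in knock-in males. Adam10, a sheddase of EGF and betacellulin, rose in all 3, by 0.55 ± 0.18 (edgeR adjusted p = 0.0254), 0.77 ± 0.18 (0.00888) and 0.66 ± 0.18 (0.00574) on the log2 scale. Adam17, the sheddase of amphiregulin, epiregulin and TGF-alpha, did not pass in any of the 3, with values of 0.08, 0.30 and 0.24 (SE 0.13 each).

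Of 22 adaptors and kinases downstream of the receptors, 6 rose and 2 fell for wild-type males, 4 rose and 1 fell for knock-in males, and 5 rose and 4 fell for wild-type females. These shares were close to those over all tested genes, 35.7%, 20.4% and 49.1%. Nras, a RAS GTPase, rose in all 3, by 0.50, 0.74 and 0.75 on the log2 scale (SE 0.14 each, edgeR adjusted p = 0.00894, 0.00267 and 0.000201). Of 12 listed negative regulators, 2 rose and 4 fell, 1 rose and 1 fell, and 3 rose and 4 fell, in the same order. In knock-in males this share is below the 20.4% of all tested genes. Lrig3, of a family that includes the ERBB-degrading protein LRIG1, fell in all 3, by 2.26 ± 0.25 (edgeR adjusted p = 8.87e-06), 1.01 ± 0.24 (0.00878) and 2.41 ± 0.25 (1.05e-06). In knock-in against wild-type male tumours, 14.5% of all tested genes passed and 9.3% were higher. Of the 12 listed genes, 3 were higher there and none lower, and all 3 were of the family of Lrig3. Whether Lrig2 and Lrig3 restrain ErbB receptors in this tissue was not tested. The log2 differences were 1.24 ± 0.18 for Lrig1 (edgeR adjusted p = 0.00253), 0.50 ± 0.15 for Lrig2 (0.0314) and 1.20 ± 0.25 for Lrig3 (0.00866). Lrig1 and Lrig2 are named there because a count of 3 was given, after their values were seen.

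Genes that ERK activity is known to induce were followed at the transcript level. Activity of the ERK cascade itself was not measured, and what changed these transcripts was not tested. Of 14, 8 rose and 1 fell for wild-type males, and 4 rose and none fell for knock-in males. For wild-type females 8 rose and 1 fell. Over all tested genes 35.7%, 20.4% and 49.1% passed in these comparisons, in the same order. The gene that fell in both wild-type comparisons was Spry2, which encodes a feedback inhibitor of the cascade, at -0.41 ± 0.13 (edgeR adjusted p = 0.0204) in males and -0.51 ± 0.13 (0.00338) in females. The median log2 fold change over the 14 was 1.08, 0.61 and 1.20, beside 0.01 over all tested genes in each. Ccnd1, Epha2, Fosl1 and Ier3 rose in all 3 comparisons. Ccnd1, which encodes cyclin D1, rose by 1.06 ± 0.18 (edgeR adjusted p = 0.000246), 0.91 ± 0.18 (0.00357) and 1.72 ± 0.18 (1.07e-06) on the log2 scale. Ier3, an immediate early gene, rose by 2.40 ± 0.50 (edgeR adjusted p = 0.00168), 1.43 ± 0.49 (0.0495) and 4.05 ± 0.57 (2.57e-05). Fosl1 rose by 2.03, 2.13 and 3.16, though its group means did not exceed 2.74 CPM, and Epha2 by 1.54, 1.11 and 1.73. None of the 14 differed past the threshold between knock-in and wild-type male tumours in edgeR, 5 had an unadjusted p under 0.05, and the lists were not counted in DESeq2, with a median log2 difference of -0.49 over the list and 0.05 over all tested genes.

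**Figure D5:**
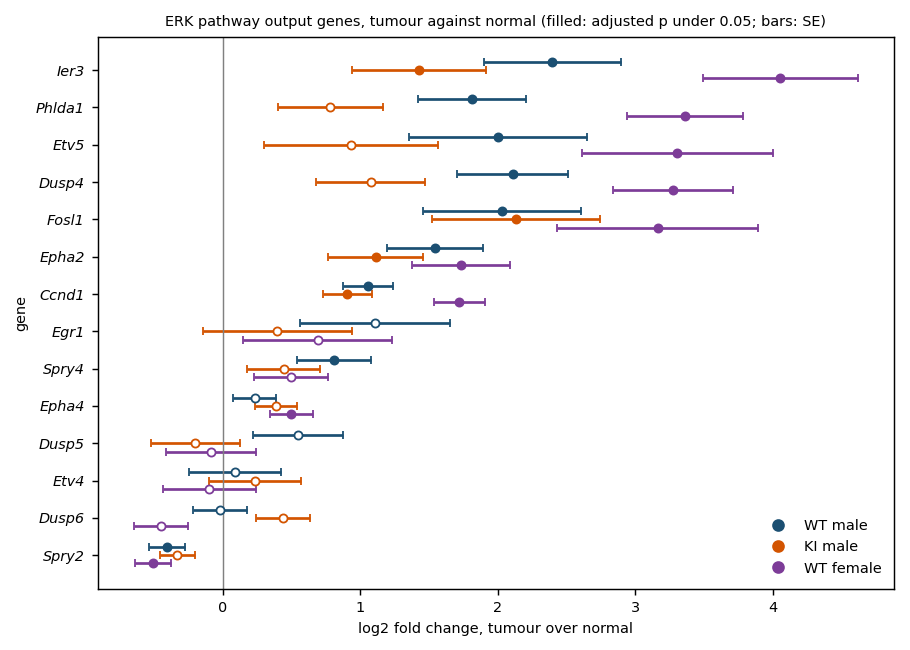
Log2 fold change of tumour over normal colon for 14 genes that ERK activity is known to induce, with the standard error as bars. Dark blue is wild-type males, orange is knock-in males and purple is wild-type females, and filled points passed an adjusted p of 0.05. Ier3, Fosl1, Epha2 and Ccnd1 are filled in all 3 comparisons, and Spry2 lies to the left of 0.

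For each tested gene the 2 genes with the most similar profile were taken from 14660 candidates, by the root mean square difference of centred log2 CPM over the 21 libraries. The libraries share tissue, depth and groups, and nothing about shared function is drawn from this. Erbb3 had the closest neighbours, Cdon (0.12) and Nek3 (0.13), where the median gene differed by 0.69. Tgfa was nearest to Vopp1 (0.16) and Tnks (0.17), and Egfr to Rc3h1 (0.17) and Zfp26 (0.17). Areg was nearest to Sorbs2os (0.25) and Mtpap (0.26), Btc to Tmod3 (0.25) and Jade3 (0.26), and Hbegf to Ripk4 (0.32) and Fermt1 (0.32). Nrg1 was nearest to Prex2 (0.41) and Lemd1 (0.42), and Egf to Stab2 (0.42) and Il15ra (0.42). Ereg had the most distant neighbours, Fpr1 (0.66), a receptor of phagocytes, and Ptgs2 (0.67), the inducible enzyme of prostaglandin synthesis, where the median gene differed by 1.41. Ptgs2 was at 17.95 ± 11.1 CPM in normal colon of wild-type males and 96.7 ± 71.6 CPM in the tumours, and at 7.89 ± 2.49 and 102 ± 17.4 CPM in wild-type females (SD, n = 3).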

How the data were processed

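Per the labels' protocols, total RNA was freed of ribosomal RNA with RNase H, and libraries primed by random hexamers were run on a NovaSeq instrument. The deposited table holds the authors' raw counts per gene. Trimmomatic, HISAT2, featureCounts, DESeq2 and build mm10 are named in the submitters' processing notes, without versions. Annotation, strand and multimapping settings are not given in the sources used here, so reads of overlapping or antisense genes cannot be told apart. In the knock-in female normal group 2 columns share a header name and were used as unnumbered replicates a and b. The authors' table of comparisons was not used. The results of 1 list of cell type markers are not reported here.

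The main test was edgeR 4.0.16 (R 4.3.3), quasi-likelihood, two-sided, TMM scaling, filterByExpr, 1 fit of all 21 libraries, Benjamini-Hochberg adjustment over 15936 genes, threshold 0.05. Standard errors come from the fold change and F statistic, CPM from TMM-scaled library sizes, and CPM per kb from GENCODE M21 exon lengths, which may differ from the authors' annotation. The profile comparison used a prior count of 2. The 21 pairs of libraries within groups differed by more than sampling noise (chi-square per degree of freedom 6.603 to 63.38). The test was checked on simulated data.

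The members and gene lists were chosen with earlier results of these data known. Genes were named by a rule: the members, the listed genes with 1 sign past the threshold in all 3 tumour comparisons, and the 2 genes nearest to each member. Erbb4, Adam17, Lrig1, Lrig2 and Spry2 were named after their values were seen. Replicate numbers come from the library names, and with 3 libraries per group the check used cannot establish that they pair. In wild-type male tumour and normal libraries, deviations from group means correlated at 0.169 to 0.215 for the same number. In no other comparison was every such correlation over 0.1. Alternatives were DESeq2 1.42.0, its size factors, library totals, no low-count filter, only the compared groups, a replicate block, libraries numbered 152 and above as a covariate, and omission of each library. Offsets for GC content and length, with and without the block, were added after the data were seen, and 95.3% of tested genes had these properties.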

Additional observations from a re-analysis of the deposited data

How the results depend on the processing

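Of 108 pairs of gene and comparison, 35 had an unadjusted p under 0.05 in edgeR, and none of these changed sign under any alternative run. Of the other 73, 37 changed sign at least once, and no direction is drawn from the values printed or plotted for these. Among those printed, Egfr in wild-type female tumours against normal colon (-0.03) became 0.12 with library totals, 0.053 with GC and length offsets and 0.046 with these and the replicate block, and ran from -0.13 to 0.12 when a library was left out. Egf in knock-in males ran from -1.14 without tumour replicate 3 to 0.062 without tumour replicate 2. In knock-in against wild-type male tumours, Ereg ran from -1.32 to 0.57, without wild-type tumour replicates 1 and 2, and Hbegf from -0.19 to 0.55, without the same replicates. Btc became -0.085 with offsets and -0.15 with block and offsets, and ran from -0.029 without knock-in tumour replicate 1 to 0.46 without replicate 3. The 20 called pairs kept their call in 159 of the results under other settings and lost it in 19, and kept it in 93 omissions of a library and lost it in 27. The replicate block changed no call among the 9 genes in wild-type male tumours against normal colon: 5 passed with and without it. This is the 1 tumour comparison where every correlation for the same replicate number was positive.

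Of the 9 genes, 6 passed in knock-in males from normal colon to tumour, 2 with only the compared groups, 2 with GC and length offsets, 1 with these and the replicate block, and 1 to 5 when a library was left out. From 0, the count for females against males in wild-type normal colon became 1 with library totals, DESeq2, the offsets, or the offsets with the replicate block (0 to 1 when a library was left out). The interaction of tumour effect with genotype went from 0 to 1 with library totals and 2 with DESeq2 (0 to 2). Knock-in against wild-type in female normal colon ran from 0 to 2.

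Over all genes, tumour against normal in knock-in males gave 724 with only the compared groups and 1765 with block and offsets (1392 to 2994 when a library was left out), and wild-type males 3659 to 5373. Knock-in against wild-type male tumours gave 1438 with only the compared groups, 1118 with offsets and 721 with block and offsets (429 to 2252). Male normal colon gave 6 with DESeq2, 0 with only the compared groups (361 at an unadjusted p under 0.05) and 4 with block and offsets, and female normal colon 1022 to 2745. Females against males in wild-type tumours gave 835 with DESeq2, 1166 with only the compared groups, 41 with offsets and 29 with block and offsets (12 to 116), and in wild-type normal colon 1623 with only the compared groups (1037 to 2799). In knock-in normal colon they gave 20 with DESeq2 size factors, 20 with library totals, 20 without the filter, 583 with DESeq2, 17 with the covariate and 29 with offsets (5 to 649). The genotype interaction gave 95 without the filter, 1326 with DESeq2, 1 with only the compared groups, 2 with the covariate, and 0 with the replicate block (3708 unadjusted), with offsets (2904 unadjusted) and with block and offsets (2526 unadjusted), and 0 to 2104 when a library was left out. The sex interaction in wild-type mice gave 311 with library totals, 577 with DESeq2, 73 with the replicate block and 23 with the covariate (31 to 544). The interaction of genotype with sex in normal colon gave 920 with DESeq2 and 254 with only the compared groups (91 to 614). The causes were not tested.

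Library totals in place of TMM moved the median of all genes to 0.15 (log2) in wild-type female tumours against normal colon, 0.10 in knock-in against wild-type female normal colon and 0.14 in the sex interaction. They moved the share of higher calls from 51% to 62.1%, from 56.1% to 72.8%, and, for females against males in wild-type normal colon, from 36.1% to 21.4%. In wild-type tumours the share for females against males went from 46.7% to 61.2%. In knock-in normal colon it went from 31.2% of 93 calls to 55% of 20. DESeq2 size factors and the fit without the low-count filter gave the same 55% there, so this shift is not particular to library totals. For genotype with sex the share went from 69.4% to 82.2%. Depth limits Egf and Epgn most, with 7 to 25 Egf counts in the wild-type male tumours.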
